A study of Mus musculus with 288 samples.

Results

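The autophagy machinery genes are the genes whose products build autophagosomes, load them with cargo or switch the pathway on. They were taken from the 6 deposited count tables by symbol: every symbol that starts with Atg and a digit, and Wipi1, Wipi2, Ulk1, Ulk2, Map1lc3a, Map1lc3b, Gabarap, Gabarapl1, Gabarapl2, Becn1, Sqstm1, Rb1cc1, Tfeb, Pik3c3, Pik3r4, Uvrag, Ambra1, Optn, Nbr1, Bnip3 and Bnip3l. The rule gave 39 genes of the 16825 symbols listed in any table, and it used no measured value. In each tissue 36 of them were listed in both tables with enough reads to be tested. Atg4a, Atg4d and Atg9b were not, and they are described at the end of the tissue accounts.

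Transcripts were measured by bulk RNA sequencing of liver, white adipose tissue (WAT) and lung from C57BL/6 mice aged 3 months, in 12 groups of 24 libraries. BLKO mice carried floxed alleles of Bmal1 (gene symbol Arntl) together with Alb-Cre, and Alb-Cre mice, the controls, carried the Cre transgene alone, so all groups shared Alb-Cre. The albumin promoter that drives this Cre is active in hepatocytes, so the deletion is aimed at hepatocytes, while other liver cells and the other tissues keep Bmal1. Daytime-fed (DF) mice of each genotype had food in the light phase alone for 30 days, and ad libitum (AL) mice could eat at any time, all in a cycle with 12 h of light. Within a tissue each combination of genotype and feeding carries its own number in the sample titles, whose meaning the labels do not give, so neither a feeding effect nor a genotype effect can be told apart from whatever else that number marks. Each group had 2 libraries, lettered A and B, at each of 12 times from hour 0 to hour 22. The labels do not say where hour 0 falls relative to lights on, so hours below are those of the labels, and because animals are not identified in them the p-values reflect library-to-library spread, which may be technical. Titles of the 3 tissues share the group numbers, hours and letters. Libraries of different tissues may therefore come from the same mice, and the tissues cannot be taken as independent repeats.

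Autophagy delivers cytoplasm, protein aggregates and whole organelles to the lysosome inside a double membrane, and in liver it is known for releasing amino acids, lipids and glucose during fasting. The Ulk1 kinase complex starts the process, a phosphatidylinositol 3-kinase complex around Pik3c3 and Becn1 marks the growing membrane with the lipid PI3P, and Wipi proteins, Atg9a and Atg2 proteins read that mark and supply lipid. A conjugation system of Atg proteins then attaches small ubiquitin-like proteins of the Atg8 family (the LC3 and GABARAP proteins) to the membrane, where receptors such as Sqstm1 tether cargo to them. Transcripts of these genes report how much message was present, not how much autophagy took place.

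The promoter sequences below belong to Gabarapl1 and Ulk1, the members with the lowest adjusted p for a feeding effect on the rhythm in Alb-Cre livers, and to Bnip3, Atg14 and Atg3, members with such an effect whose promoters hold an E-box, the letters bound by the Bmal1 and Clock dimer. All come from RefSeq on GRCm38.p6, are written 5′ to 3′ on the strand of the gene as windows of 100 bases, and show each CACGTG in capitals. The windows are chr6:129533092-129533191 on the plus strand for Gabarapl1, chr5:110810082-110810181 on the minus strand for Ulk1, chr7:138909562-138909661 on the minus strand for Bnip3, chr14:47568425-47568524 on the minus strand for Atg14 and chr16:45158688-45158787 on the plus strand for Atg3.
Gabarapl1: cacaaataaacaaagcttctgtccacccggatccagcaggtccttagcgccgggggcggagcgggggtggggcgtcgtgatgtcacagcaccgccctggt
Ulk1: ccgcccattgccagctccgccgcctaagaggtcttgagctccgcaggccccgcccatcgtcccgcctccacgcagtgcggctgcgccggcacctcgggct
Bnip3: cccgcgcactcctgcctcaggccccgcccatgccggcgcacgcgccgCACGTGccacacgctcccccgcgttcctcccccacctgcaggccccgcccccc
Atg14: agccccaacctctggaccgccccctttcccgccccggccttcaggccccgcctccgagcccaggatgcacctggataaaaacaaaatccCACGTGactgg
Atg3: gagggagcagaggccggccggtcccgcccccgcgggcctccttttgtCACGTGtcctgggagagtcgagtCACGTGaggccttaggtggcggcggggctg

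Promoters from 250 bases before to 50 after the start were in the RefSeq table for 32 of the 39 genes, 37 promoters in all, and each motif was searched on both strands. The E-box CACGTG was in 5 of the 37, those of Atg14, Atg3, Atg5, Atg7 and Bnip3, and in 7.15% of 32851 promoters of all genes. The rhythms of Atg5 and Atg7 did not pass the feeding test in livers of either genotype. Whether an E-box goes with a changed rhythm was not tested. The E-box of Bnip3 began 108 bases before the start, that of Atg14 at the base before it, and those of Atg3 94 and 71 bases before it. The longer CLEAR letters TCACGTG, which contain an E-box and are known as a Tfeb site, were in 3 of the 37 (Atg14, Atg3 and Atg7) and in 3.765% of all promoters. The ROR and REV-ERB letters AGGTCA were in 6 of the 37 and in 16.26% of all, and the D-box TTANGTAA was in 0 of the 37 and in 2.323% of all. These are matches of letters in a window, not measured binding.

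Liver libraries held 1214842 to 5462461 counts (median 3747692), WAT libraries 1365001 to 5040306 (3350924) and lung libraries 923122 to 3973976 (2584567). Levels below are CPM after TMM scaling, the share of a library's counts that fall on a gene, so they compare libraries for 1 gene and not genes with each other. Summed hepatocyte markers had liver medians of 70160 CPM in BLKO DF, 69420 in BLKO AL, 96880 in Alb-Cre DF and 97350 in Alb-Cre AL libraries. Summed adipocyte markers had WAT medians of 34350 to 39670 CPM, with a lowest library of 11670 CPM, and summed lung epithelium markers had lung medians of 81790 to 95470 CPM. In 3 libraries the distance from their group's fitted curve was more than 2 times the median of their tissue: the liver BLKO AL library 0B, the WAT BLKO DF library 0A and the WAT Alb-Cre DF library 0B. Separately, the BLKO AL libraries 0B, 4B and 22A held the 3 highest values of their group for Gabarapl1 in WAT and in lung and for Sqstm1 in liver. They were picked by their Gabarapl1 values after the data were seen. Leaving them out lowers the BLKO AL level of Gabarapl1 by construction, so it is no independent check of that gene. Calls found to rest on these libraries are given with and without them, while levels and peak hours are from all libraries. In bulk tissue, fewer cells of a type and less RNA per cell cannot be told apart.

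The targeted gene and the clock output gene Dbp were read first. Arntl, summed over the whole gene, had a lowest, median and highest level of 6.22, 8.46 and 14.4 CPM in BLKO DF livers and 7.53, 10.7 and 15.4 CPM in BLKO AL livers, against 0.376, 7.15 and 18.1 CPM in Alb-Cre DF livers and 0, 11.2 and 24.8 CPM in Alb-Cre AL livers. Since the counts cover the whole gene, its level does not check a deletion of part of it. The fitted peak-to-trough difference of its daily cycle was 0.27 in BLKO DF and 0.42 in BLKO AL livers, against 3.33 in Alb-Cre DF and 4.12 in Alb-Cre AL livers on the log2 scale. The Arntl rhythm passed the test in neither BLKO group (adjusted p = 0.792 with DF and 0.512 with AL) and in both Alb-Cre groups (2.11e-11 with DF and 1.17e-13 with AL). In Alb-Cre livers Arntl peaked at hour 11.0 with DF and 22.9 with AL, and Dbp at hour 23.0 with DF and 10.9 with AL, so both clock genes stood at nearly opposite hours under the 2 regimens.

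To investigate when in the day autophagy transcripts peak, a 24 h cosine curve was fitted to each group, and a gene is called rhythmic where edgeR's quasi-likelihood test gave an adjusted p under 0.05 over all genes tested. In liver, more autophagy genes passed with DF than with AL in both genotypes, and the difference between these counts was not tested. In BLKO livers 9 of 36 (25%) were rhythmic with DF, where 7.75% of all genes were, against 3 of 36 with AL, where 6.96% of all genes were. In Alb-Cre livers 16 of 36 (44.4%) were rhythmic with DF, where 19.7% of all genes were, against 7 of 36 (19.4%) with AL, where 17.6% of all genes were. Most rhythmic members of DF livers peaked late in the label day. Hours 18 to 24 are the window that held most of these peaks, so its comparison with all genes is not an independent test. In BLKO DF livers 7 of the 9 (77.8%) had a fitted peak between hours 18 and 24, where 38.8% of all rhythmic genes did, and in Alb-Cre DF livers 10 of the 16 (62.5%), where 34.3% of all rhythmic genes did. With AL, 0 of the 3 rhythmic members in BLKO livers and 2 of the 7 in Alb-Cre livers peaked in those hours, where 27.9% and 21.8% of all rhythmic genes did.

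**Figure D1:**
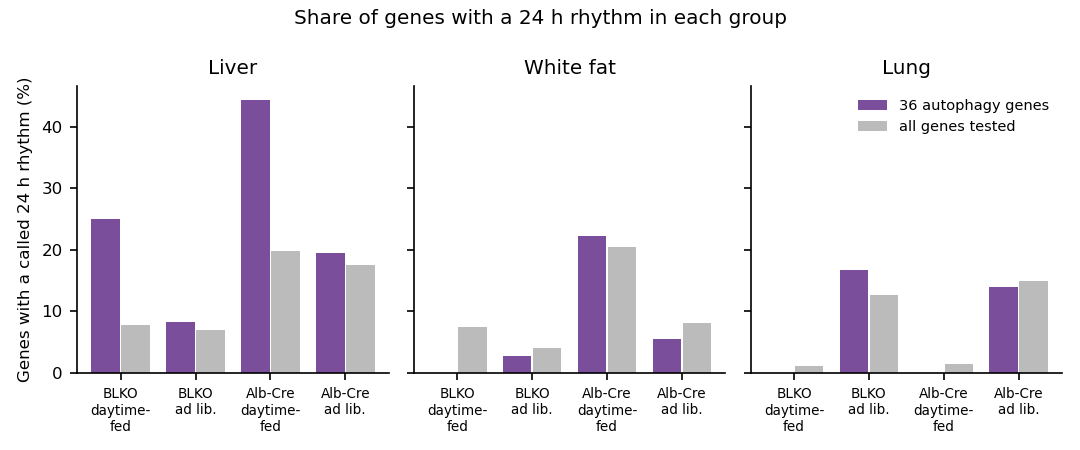
Percent of the 36 autophagy genes tested, and of all genes tested, that were rhythmic (adjusted p under 0.05) in each of the 4 groups of liver, WAT and lung; bars start at 0. In liver the share of autophagy genes was 25% in BLKO DF and 44.4% in Alb-Cre DF, above the 7.75% and 19.7% of all genes.

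The feeding effect on rhythm itself (the DF minus AL difference in cosine and sine together) passed the test for 11 of 36 autophagy genes in BLKO livers and for 19 of 36 in Alb-Cre livers. That is 30.6% against a background of 15.2% of all genes in BLKO, and 52.8% against 28.8% in Alb-Cre livers. The test passes on a shift of the peak, on a change in the size of the cycle or on both, and a peak hour is well defined only where the rhythm itself passed. In BLKO livers 2 of the 11 changed genes, Gabarapl1 and Ulk1, were rhythmic under both regimens, and both had peaks over 9 h apart. In Alb-Cre livers 6 of the 19 were rhythmic under both regimens (Atg101, Atg16l2, Bnip3, Gabarapl1, Sqstm1 and Ulk1), and 5 of these had peaks over 9 h apart. Of all genes that changed and were rhythmic under both regimens, 61.9% in BLKO and 75.1% in Alb-Cre livers had peaks that far apart. Counting also the changed genes with no passing rhythm in 1 or both regimens, 7 of 11 members in BLKO (63.6%) and 14 of 19 in Alb-Cre livers (73.7%) had fitted peaks over 9 h apart, where 67.7% and 69.8% of all changed genes did, so these shifts lie near the background. Leaving out hour 20 took the BLKO count to 6, and leaving out the BLKO AL libraries 0B, 4B and 22A took it to 12, of which 10 were among the 11.

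By role, the largest shares of changed genes in control livers were those of the cargo receptors and the lipid supply proteins. Of all genes 15.2% changed in BLKO and 28.8% in Alb-Cre livers. The role groups hold at most 9 tested genes and were not compared by a test, so their order is not established. Several of the BLKO calls counted here were lost without single hours or libraries, as given below. Cargo receptors with a changed rhythm numbered 3 of 5 in BLKO and 5 of 5 in Alb-Cre livers, lipid supply and PI3P effectors 2 of 5 in BLKO and 4 of 5 in Alb-Cre, and Atg8 proteins 2 of 5 in BLKO and 3 of 5 in Alb-Cre. PI3-kinase complex members numbered 3 of 6 in both genotypes, and they were the same genes, Pik3c3, Atg14 and Uvrag. Initiation genes numbered 1 of 5 in BLKO (Ulk1) and 2 of 5 in Alb-Cre (Ulk1 and Atg101). Of the conjugation enzymes, 0 of 9 in BLKO and 2 of 9 in Alb-Cre (Atg16l2 and Atg3) passed, and Tfeb, the transcription factor of lysosome and autophagy genes, passed in neither.

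Among the Atg8 proteins, Gabarapl1, a GABARAP family member on chromosome 6 (129533160 to 129542346, plus strand, mm10), had the lowest adjusted p in both genotypes. Its lowest, median and highest levels were 258, 334 and 509 CPM in BLKO DF and 249, 407 and 542 CPM in BLKO AL livers, and 202, 388 and 729 CPM in Alb-Cre DF and 236, 403 and 617 CPM in Alb-Cre AL livers. In BLKO livers the DF and AL ranges overlap over most of their length, and in Alb-Cre livers the DF range reaches both above and below the AL range. In BLKO DF livers the highest pair was 464 and 509 CPM at hour 20 and the lowest 258 and 295 CPM at hour 12, while in BLKO AL livers the highest pair was 452 and 542 CPM at hour 8 and the lowest 279.8 and 292 CPM at hour 18. In Alb-Cre DF livers the highest pair was 558 and 729 CPM at hour 18 and the lowest 202 and 263 CPM at hour 12, while in Alb-Cre AL livers the highest pair was 529 and 617 CPM at hour 8 and the lowest 236 and 241 CPM at hour 16. These hours were picked by the mean of their pair, so agreement within a pair is no separate support. The highest hour moved from 20 with DF to 8 with AL in BLKO livers, and from 18 to 8 in Alb-Cre livers. The lowest moved from 12 with DF to 18 with AL in BLKO livers, and from 12 to 16 in Alb-Cre livers. Fitted peaks fell at hour 20.3 with DF and 6.94 with AL in BLKO livers (adjusted p of the change 1.25e-09), and at hour 20.4 with DF and 5.49 with AL in Alb-Cre livers (6.04e-21). The peak-to-trough difference was 0.79 with DF and 0.67 with AL in BLKO livers, and 1.48 with DF and 0.99 with AL in Alb-Cre livers (log2, SE 0.11 each). Gabarapl1 was also the single member whose rhythm differed between genotypes with DF (adjusted p = 0.0227), where 1.67% of all genes did, and that call was lost without hour 6 (0.108), 10 (0.0858), 16 (0.0521) or 18 (0.0563).

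Map1lc3b, which encodes LC3B, the Atg8 protein most used to count autophagosomes, was rhythmic with DF and not with AL. Its lowest, median and highest levels were 100, 123 and 160.4 CPM in BLKO DF and 99.03, 120.1 and 157 CPM in BLKO AL livers, and 119.9, 173 and 233 CPM in Alb-Cre DF and 123, 152 and 177 CPM in Alb-Cre AL livers. At hour 20 both Alb-Cre DF libraries, at 207 and 233 CPM, lay above every Alb-Cre AL library. That hour was picked as the highest of its group, so the gap is no separate support. The peak-to-trough difference was 0.47 with DF and 0.26 with AL in BLKO livers, and 0.80 with DF and 0.14 with AL in Alb-Cre livers (SE 0.08 each). The DF peaks were at hours 21.2 in BLKO and 20.9 in Alb-Cre livers. The feeding effect on the Map1lc3b rhythm had an adjusted p of 1.06e-04 in BLKO and 1.37e-08 in Alb-Cre livers. Its exons overlap those of Zcchc14 on the other strand, and since the strand setting of the counts is not given in the sources used here, reads of the 2 genes cannot be told apart. Gabarapl2, another family member, did not pass in BLKO livers (adjusted p = 0.452) and changed its rhythm in Alb-Cre livers (0.044 with edgeR, 0.0501 with DESeq2), with a peak-to-trough difference of 0.25 with DF and 0.45 with AL in the controls.

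**Figure D2:**
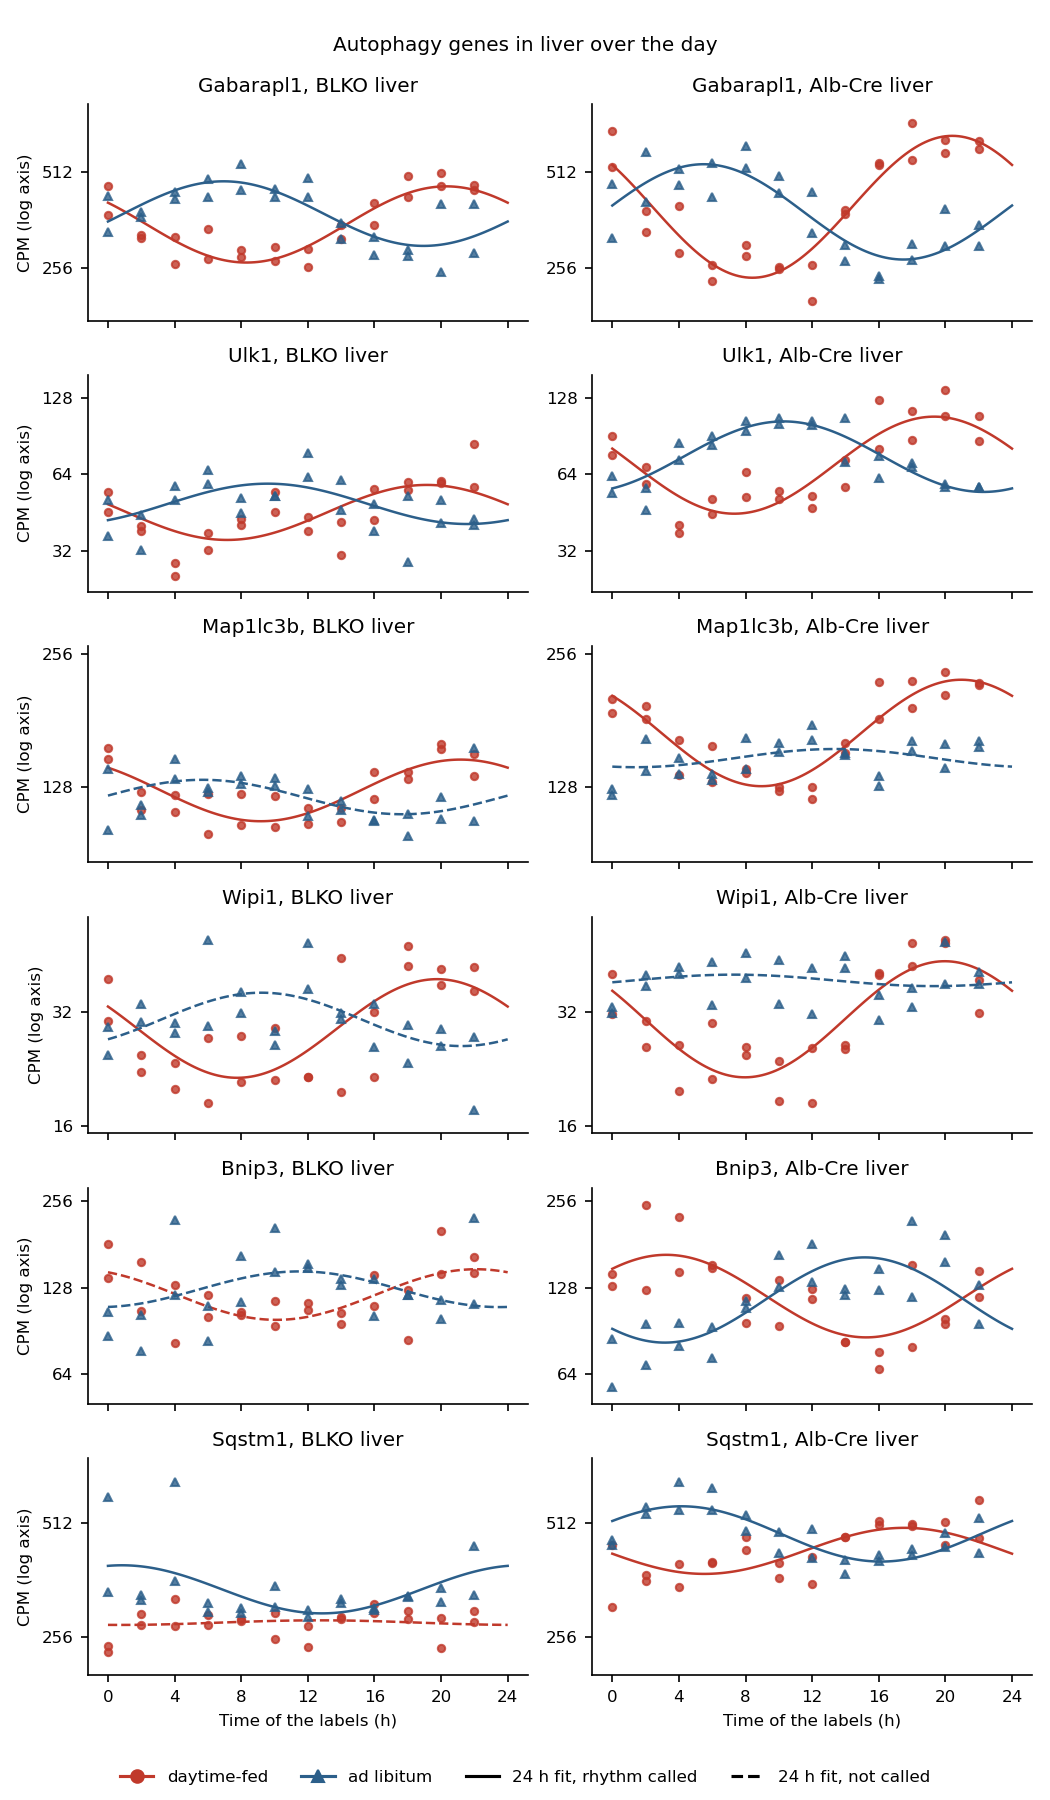
CPM (log axis) against the hour of the labels for 6 autophagy genes in BLKO livers (left) and Alb-Cre livers (right), with DF as circles and AL as triangles, 2 libraries per hour. Solid curves are fitted 24 h rhythms with adjusted p under 0.05 and dashed curves those above it; Gabarapl1 curves peak at hours 20.3 and 20.4 with DF and at 6.94 and 5.49 with AL.

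Of the initiation genes, Ulk1, the kinase that starts autophagosome formation, was rhythmic in all 4 liver groups. It ranged over 25.5, 43.1 and 84.2 CPM (lowest, median and highest) in BLKO DF and 29, 50.7 and 77.9 CPM in BLKO AL livers, and over 37.6, 66.9 and 137 CPM in Alb-Cre DF and 46.3, 72.0 and 107 CPM in Alb-Cre AL livers. In Alb-Cre DF livers its highest pair was 108 and 137 CPM at hour 20 and its lowest 37.6 and 40.4 CPM at hour 4, while in Alb-Cre AL livers the highest pair was 100.8 and 106 CPM at hour 10 and the lowest 46.3 and 56.5 CPM at hour 2. Fitted peaks were at hour 19.2 with DF and 9.59 with AL in BLKO livers, and at hour 19.3 with DF and 10.3 with AL in Alb-Cre livers. The shifts were 9.56 ± 1.36 h in BLKO (adjusted p = 9.51e-05) and 9.06 ± 0.78 h in Alb-Cre livers (3.69e-13; ± SE). Peak-to-trough differences were 0.72 with DF and 0.53 with AL in BLKO livers, and 1.27 with DF and 0.92 with AL in Alb-Cre livers (SE 0.15 each). The rhythm call in BLKO AL livers had an adjusted p of 0.0457 and was lost without the libraries 0B, 4B and 22A (0.0983) or without those that stand apart (0.0745). Atg101, a subunit of the same complex, had an adjusted p of 0.113 in BLKO livers and changed in Alb-Cre livers (6.89e-04), with control peaks at hour 15.4 with DF and 2.62 with AL.

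Of the PI3-kinase genes, Pik3c3 and Atg14 had fitted DF peaks between hours 18 and 24 in both genotypes, and Uvrag did not. Pik3c3, the catalytic subunit, ranged over 14.1, 19.4 and 26.5 CPM in BLKO DF and 15.7, 20.5 and 26.9 CPM in BLKO AL livers, and over 13.2, 18.1 and 30.8 CPM in Alb-Cre DF and 13.0, 18.8 and 27.6 CPM in Alb-Cre AL livers. Its fitted peaks were at hour 19.6 with DF and 4.65 with AL in BLKO livers (adjusted p of the change 0.017), and at hour 18.8 with DF and 3.96 with AL in Alb-Cre livers (1.73e-04). Of these Pik3c3 rhythms, that of Alb-Cre DF livers alone passed. Atg14, which directs the complex to autophagosomes and carries an E-box over its start, ranged over 4.82, 9.59 and 17.2 CPM in BLKO DF and 7.43, 9.45 and 17.9 CPM in BLKO AL livers. In Alb-Cre livers it ranged over 7.37, 14.03 and 20.7 CPM with DF and 7.26, 14.2 and 17.4 CPM with AL. In both genotypes Atg14 was rhythmic with DF and not with AL: peak-to-trough differences were 0.75 with DF and 0.22 with AL in BLKO livers (adjusted p of the change 0.0244), and 0.93 with DF and 0.25 with AL in Alb-Cre livers (7.17e-04). In DF livers its peaks were at hour 20.6 in BLKO and 20.1 in Alb-Cre. Uvrag, the subunit of the endosomal form of the complex, changed in both genotypes but at other hours. Its fitted peaks were at hour 15.3 with DF and 6.32 with AL in BLKO livers (0.0443), and at hour 0.968 with DF and 13.6 with AL in Alb-Cre livers (0.0119). The Uvrag rhythm passed in no liver group, so these hours are not well defined. Its highest BLKO AL pair, at hour 4, was 26.3 and 63.0 CPM, and its BLKO change is not given here with single hours left out. The BLKO change of Pik3c3 was lost without hour 4 (adjusted p = 0.0649), 6 (0.0752) or 20 (0.0519), and that of Atg14 without hour 6 (0.0714) or 18 (0.104). Becn1, Pik3r4 and Ambra1 did not pass this test in liver.

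Among the PI3P effectors, Wipi1, which binds PI3P on the growing membrane, had a clear cycle with DF and none that passed with AL. The lowest, median and highest Wipi1 levels were 18.3, 27.5 and 47.98 CPM in BLKO DF and 17.6, 29.4 and 49.5 CPM in BLKO AL livers, and 18.4, 28.1 and 49.8 CPM in Alb-Cre DF and 30.4, 38.6 and 48.9 CPM in Alb-Cre AL livers. In Alb-Cre DF livers the pair at hour 20 was 48.8 and 49.8 CPM and the pair at hour 10 was 18.6 and 23.7 CPM, the low pair being below every Alb-Cre AL library. These hours were picked as the highest and lowest of the group, so the gap is no separate support. Peak-to-trough differences were 0.87 with DF and 0.47 with AL in BLKO livers, and 1.02 with DF and 0.10 with AL in Alb-Cre livers (SE 0.15 each). The peaks with DF were at hour 19.8 in BLKO and 20.0 in Alb-Cre livers, and the change had an adjusted p of 7.61e-06 in BLKO and 3.52e-05 in Alb-Cre livers. Atg2a, a lipid transfer protein, changed in both genotypes as well (0.0161 in BLKO and 0.00106 in Alb-Cre livers), with DF peaks at hours 21.6 and 19.8 and AL peaks at hours 5.81 and 6.91. Of these Atg2a rhythms, that of Alb-Cre DF livers alone passed, and the highest BLKO AL pair, at hour 0, was 22.8 and 70.3 CPM. Without hour 20 or hour 22 the BLKO change of Atg2a had an adjusted p of 0.0885 or 0.0734, and with only the groups compared in the fit it had 0.0546. Atg9a, a lipid scramblase, and Wipi2 did not pass in BLKO livers (0.0618 and 0.168) and changed in Alb-Cre livers (8.47e-04 and 0.0136). The exons of Atg9a overlap those of Ankzf1 on the other strand.

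The cargo receptors did not share 1 peak hour. Bnip3, a receptor for mitochondria with an E-box in its promoter, ranged over 82.4, 114 and 202 CPM in BLKO DF and 77.2, 120.5 and 223 CPM in BLKO AL livers, and over 66.9, 122 and 248 CPM in Alb-Cre DF and 57.9, 119 and 218 CPM in Alb-Cre AL livers. In BLKO livers its peaks were at hour 22.1 with DF and 11.5 with AL (adjusted p of the change 0.0252), and neither BLKO rhythm passed alone (0.0703 with DF and 0.451 with AL). That BLKO change was lost without hour 0 (0.109), 10 (0.101), 12 (0.0517) or 20 (0.104). In Alb-Cre livers its fitted peak was at hour 3.24 with DF and 15.2 with AL, 11.9 ± 1.08 h apart (9.89e-08). Its lowest pair there was 66.9 and 76.6 CPM at hour 16 with DF, and 57.9 and 85.2 CPM at hour 0 with AL.

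Sqstm1, the ubiquitin-binding receptor p62, ranged over 234, 286 and 324 CPM in BLKO DF and 289, 321 and 654 CPM in BLKO AL livers, and over 308, 441 and 587 CPM in Alb-Cre DF and 376, 471 and 657 CPM in Alb-Cre AL livers. In BLKO DF livers the Sqstm1 cycle was 0.04 ± 0.11 on the log2 scale, against 0.42 ± 0.11 in BLKO AL livers, and the change had an adjusted p of 0.0359. That BLKO result rests on few libraries: 0B, 4B and 22A held 597, 654 and 445 CPM and the next library 359 CPM. Without these 3 the change had an adjusted p of 0.609 and the BLKO AL rhythm 0.636, and without 0B alone they had 0.105 and 0.0584. In Alb-Cre livers Sqstm1 peaked at hour 17.5 with DF and 4.14 with AL (adjusted p of the change 1.82e-05). The exons of Sqstm1 overlap those of Mrnip on the other strand. Optn, another ubiquitin-binding receptor, changed in both genotypes (0.0389 in BLKO and 2.80e-04 in Alb-Cre livers), with DF peaks at hours 23.2 and 23.5 and AL peaks at hours 7.02 and 9.63. Of these Optn rhythms, that of Alb-Cre DF livers alone passed. The BLKO changes of Sqstm1, Optn and Uvrag are not given here with single hours left out, and the BLKO count fell from 11 to 6 without hour 20. Bnip3l and Nbr1 did not pass in BLKO livers (0.211 and 0.214) and changed in Alb-Cre livers (0.00879 and 0.0129).

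**Figure D3:**
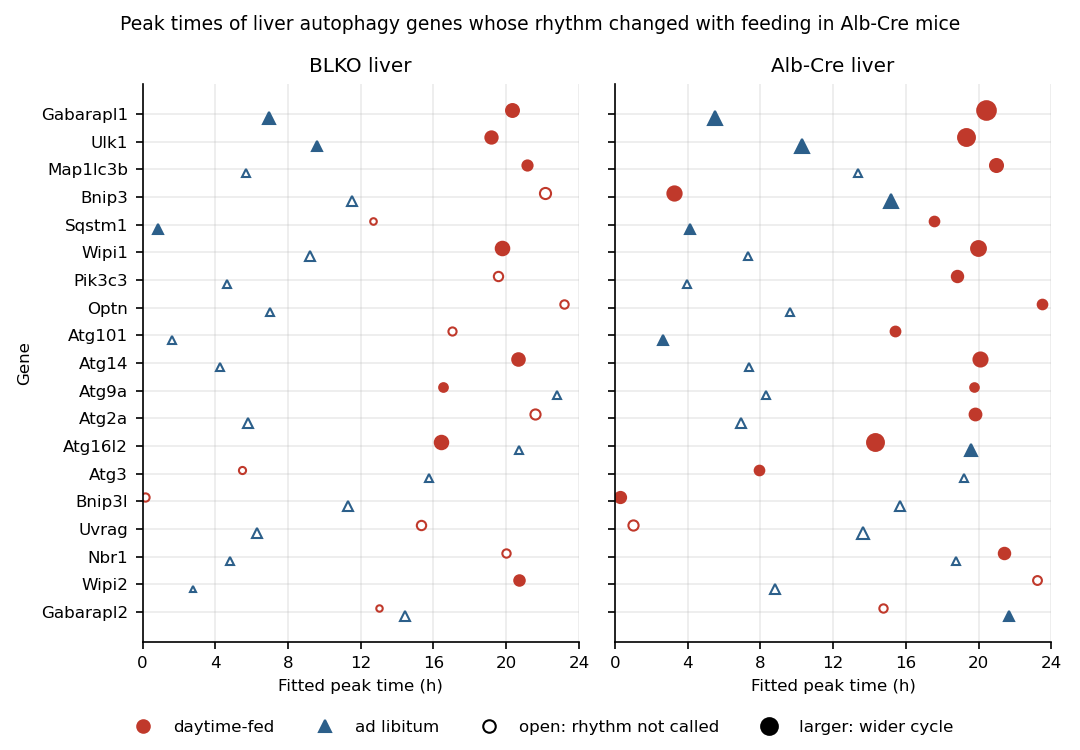
Fitted peak hour of the 19 autophagy genes whose rhythm changed with feeding in Alb-Cre livers, drawn for BLKO livers (left) and Alb-Cre livers (right), with DF and AL as separate symbols. Filled symbols are rhythms with adjusted p under 0.05, open symbols those above it, and larger symbols wider cycles; in Alb-Cre livers 6 pairs have both symbols filled, and 5 of these lie over 9 h apart.

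Whether the liver feeding effect on rhythm differed between genotypes was tested as an interaction. It passed for 4 of 36 autophagy genes, where 7.29% of all genes passed. Gabarapl1 (adjusted p = 0.0173) had DF and AL peaks 10.6 h apart in BLKO and 9.07 h apart in Alb-Cre livers, with wider cycles in Alb-Cre under both regimens. Bnip3 (0.00108) and Uvrag (0.00615) had fitted peaks at different hours in the 2 genotypes, as given above. The Bnip3 rhythm passed in neither BLKO group and that of Uvrag in no liver group, so those hours are not well defined. Atg9a (0.0474) had fitted peaks at hour 16.5 with DF and 22.8 with AL in BLKO livers, and at hour 19.8 with DF and 8.30 with AL in Alb-Cre livers. Its AL rhythm passed in neither genotype. Leaving out hour 16 ended the calls of Gabarapl1 (0.0786), Uvrag (0.0552) and Atg9a (0.0679). Leaving out hour 6 also ended that of Gabarapl1 (0.0746), hour 4 that of Uvrag (0.095), and any of 8 other hours that of Atg9a, up to 0.328. The Atg9a call was also lost with a replicate block (0.0548) and without the low-count filter (0.0702). The direct contrast of BLKO with Alb-Cre under AL feeding, where 4.95% of all genes had a different rhythm, gave 0 of 36 autophagy genes with edgeR, 1 with DESeq2 and 8 at an unadjusted p under 0.05. Genotypes were also deposited in separate tables, so genotype cannot be told apart from whatever else differed between those sets.

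Daily means moved less than rhythms. In BLKO livers 2 of 36 autophagy genes had a lower mean with DF than with AL and 0 a higher one, where 2.01% of all genes were lower and 2.24% higher. Sqstm1 fell by 0.31 ± 0.05 (log2 ± SE, adjusted p = 1.79e-04), and by 0.19 ± 0.04 without the libraries 0B, 4B and 22A (0.00197). Map1lc3a, which encodes LC3A, fell by 0.32 ± 0.07 (0.00442), with lowest, median and highest levels of 29.6, 43.9 and 64.2 CPM in DF and 36.5, 54.6 and 88.3 CPM in AL livers. The 2 ranges overlap over most of their length. The median over the 36 genes was -0.04, against -0.01 over all genes tested.

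In Alb-Cre livers 5 of 36 autophagy genes had a changed mean, 1 higher and 4 lower, where 4.33% of all genes were higher with DF and 3.54% lower. Atg16l2, a relative of the conjugation scaffold Atg16l1, fell by 0.56 ± 0.10 (adjusted p = 6.38e-05). Its lowest, median and highest levels were 10.9, 14.4 and 30.7 CPM in BLKO DF and 9.16, 15.1 and 23.1 CPM in BLKO AL livers, and 10.3, 21.6 and 39.6 CPM in Alb-Cre DF and 18.3, 31.0 and 57.2 CPM in Alb-Cre AL livers. The exons of Atg16l2 overlap those of Fchsd2 on the other strand. Wipi1 fell by 0.35 ± 0.07 (8.51e-04), Wipi2 by 0.26 ± 0.07 (0.010) and Ambra1, a Becn1 partner, by 0.21 ± 0.06 (0.0227), while Map1lc3b was higher by 0.19 ± 0.04 (8.29e-04). Leaving out hour 2 or 16 ended the Wipi2 call (-0.22 and -0.21), and leaving out hour 0, 10 or 18 ended that of Ambra1 (-0.18 each). The genotypes differed in this effect for 1 gene, Atg16l2 (interaction 0.55 ± 0.15, adjusted p = 0.0337), where 0.921% of all genes had a higher and 0.81% a lower value in BLKO. That call was lost without the libraries 0B, 4B and 22A (0.49, adjusted p = 0.0728) and by leaving out hour 4, 8, 12, 16, 20 or 22 (0.50 to 0.54).

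**Figure D4:**
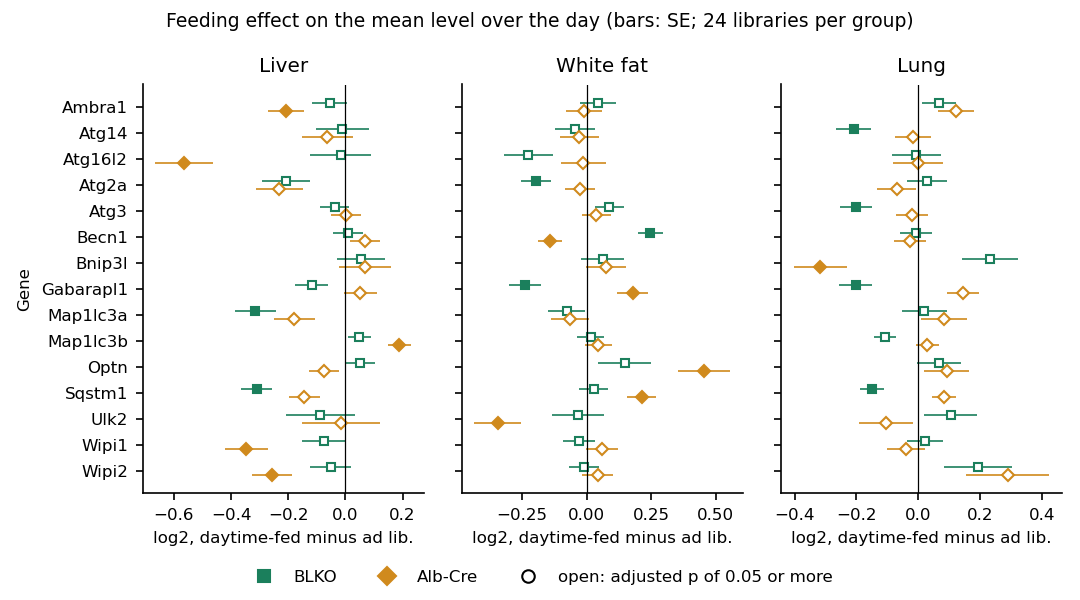
Difference in daily mean (DF minus AL, log2 ± SE) for 15 autophagy genes in liver, WAT and lung, with BLKO as squares above Alb-Cre as diamonds and filled symbols for adjusted p under 0.05. Gabarapl1 lies at -0.24 in BLKO WAT and -0.20 in BLKO lung, against 0.18 in Alb-Cre WAT and 0.14 in Alb-Cre lung.

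In WAT, few autophagy genes were rhythmic outside Alb-Cre DF fat, where their share lay near that of all genes. None of 36 passed in BLKO DF WAT with edgeR or with DESeq2, 6 having an unadjusted p under 0.05, where 7.43% of all genes passed. In BLKO AL WAT 1 of 36 passed (Gabarap, adjusted p = 0.00656, lost at 0.151 without the libraries 0B, 4B and 22A), where 4.09% of all genes did. In Alb-Cre WAT 8 of 36 (22.2%) were rhythmic with DF, where 20.5% of all genes were, and 2 of 36 with AL (Tfeb at 0.00264 and Optn at 0.0166), where 8.13% of all genes were. The 8 were Uvrag, Map1lc3a, Atg101, Atg5, Pik3c3, Pik3r4, Nbr1 and Rb1cc1, of which Pik3c3 and Pik3r4 encode the catalytic and regulatory subunits of 1 kinase.

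The rhythm of 0 of 36 autophagy genes changed with feeding in BLKO WAT with edgeR, 1 with DESeq2 and 7 at an unadjusted p under 0.05, where 8.97% of all genes changed. In Alb-Cre WAT 6 of 36 (16.7%) changed, where 11.4% of all genes did. The difference between genotypes did not pass for any member with edgeR or DESeq2 (4 at an unadjusted p under 0.05), and it passed for 0.0% of all genes, so the counts of 0 and 6 are not shown to differ. The 6 genes were 3 of the 6 PI3-kinase genes and 1 gene each of the initiation, conjugation and cargo groups. Their cycles were shallow, with peak-to-trough differences of 0.20 to 0.47 on the log2 scale.

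Atg5, part of the conjugation machinery, had lowest, median and highest levels of 25.4, 41.8 and 60.7 CPM in Alb-Cre DF and 33.6, 44.1 and 53.4 CPM in Alb-Cre AL WAT, with peaks at hour 6.01 with DF and 15.4 with AL (adjusted p = 0.00481). At hour 4 the DF pair was 52.4 and 57.9 CPM, and at hour 14 the AL pair was 50.1 and 50.6 CPM. Atg14 peaked at hour 20.2 with DF and 6.45 with AL (0.00783), with 5.94, 11.8 and 14.9 CPM in DF and 6.87, 12.1 and 14.9 CPM in AL WAT. In Alb-Cre liver the fitted peaks of Atg14 were at hour 20.1 with DF and 7.36 with AL, where the AL rhythm did not pass. Pik3r4 peaked at hour 20.7 with DF and 7.14 with AL (0.00865), Uvrag at hour 6.31 with DF and 12.9 with AL (0.00885), Atg101 at hour 2.28 with DF and 9.25 with AL (0.00911), and Sqstm1 at hour 0.609 with DF and 12.4 with AL (0.0199). Uvrag, whose level was 29.1, 39.1 and 53.7 CPM in Alb-Cre DF and 23.3, 35.4 and 43.1 CPM in Alb-Cre AL WAT, lost its call without hour 4 (adjusted p = 0.189). Atg101 lost it without hour 12 (0.0822), Pik3r4 without hour 10 (0.0599) or 18 (0.0833), and Sqstm1 without hour 10 (0.0609), 12 (0.0531) or 14 (0.127). No AL rhythm of the changed genes passed in Alb-Cre WAT, and the DF rhythms of Atg14 and Sqstm1 did not (adjusted p = 0.0975 and 0.278). Those peak hours are therefore not well defined. The clock gene Arntl peaked at hour 11.8 with DF and 23.3 with AL in the same Alb-Cre fat.

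Mean levels in WAT moved in opposite directions in the 2 genotypes for Becn1 and Gabarapl1. In BLKO WAT 3 of 36 had a changed mean, 1 higher and 2 lower, where 5.02% of all genes were higher and 5.39% lower. In Alb-Cre WAT 5 of 36 did, 3 higher and 2 lower, where 4.89% of all genes were higher and 4.91% lower. Becn1, the scaffold of the PI3-kinase complex, had lowest, median and highest levels of 75.2, 95.6 and 113 CPM in BLKO DF and 53.8, 80.05 and 101.3 CPM in BLKO AL WAT, and 65.6, 88.5 and 103 CPM in Alb-Cre DF and 78.6, 94.3 and 122 CPM in Alb-Cre AL WAT. It was higher with DF by 0.25 ± 0.05 in BLKO (adjusted p = 1.60e-04) and lower by a difference of -0.14 ± 0.05 in Alb-Cre WAT (0.040). The interaction was 0.39 ± 0.07 (2.82e-04), and it was among the 1.71% of all genes with a higher value in BLKO. The exons of Becn1 overlap those of Cntd1 on the other strand. The Alb-Cre call of Becn1 was lost when hour 2 was left out (-0.10), by leaving out any of 8 other hours, and with only the groups compared in the fit (-0.14).

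Gabarapl1 in WAT had lowest, median and highest levels of 232, 264 and 325 CPM in BLKO DF and 237, 297 and 576 CPM in BLKO AL, and 293, 384 and 459 CPM in Alb-Cre DF and 280.4, 329 and 392.1 CPM in Alb-Cre AL. Its mean difference was -0.24 ± 0.06 in BLKO (adjusted p = 0.00456) and 0.18 ± 0.06 in Alb-Cre WAT (0.0438), with an interaction of -0.42 ± 0.09 (0.00209), and 1.89% of all genes had a lower value in BLKO. The libraries 0B, 4B and 22A held 558, 576 and 480.5 CPM in BLKO AL WAT and the next library 339 CPM. Without them the BLKO difference was -0.10 ± 0.04 (adjusted p = 0.130) and the interaction -0.28 (0.00541). The Alb-Cre call of Gabarapl1 was lost by leaving out any of 9 hours, with values of 0.15 to 0.19, and without the low-count filter (0.17). Optn was higher with DF by 0.45 ± 0.10 in Alb-Cre WAT (0.00140), with 36.9, 51.7 and 107 CPM in DF and 25.3, 39.0 and 86.9 CPM in AL. Sqstm1 was higher there by 0.21 ± 0.06 (0.00805), while the kinase gene Ulk2 was lower, at -0.34 ± 0.09 (0.00738). Atg2a was lower in BLKO WAT, at -0.20 ± 0.06 (0.0174), and that call was lost without hour 4 (-0.17), 14 (-0.18) or 18 (-0.18). Over all 36 genes the median difference was -0.03 in BLKO and 0.03 in Alb-Cre WAT, against 0.00 and 0.01 over all genes tested. Summed macrophage markers ranged from 460.1 to 1098 CPM in BLKO DF and 531 to 1440 CPM in BLKO AL WAT, and from 446 to 1281 CPM in Alb-Cre DF and 695 to 1531 CPM in Alb-Cre AL WAT. Of the 6 macrophage markers tested, 2 fell with DF in BLKO and 1 in Alb-Cre WAT. Summed smooth and skeletal muscle markers ranged from 289.6 to 566.5 CPM in BLKO DF and 210.0 to 471 CPM in BLKO AL WAT, and from 229.7 to 754 CPM in Alb-Cre DF and 119.7 to 363 CPM in Alb-Cre AL WAT. Of the 4 muscle markers tested, 2 were higher with DF in BLKO and 4 in Alb-Cre WAT, with a median difference of 0.31 in BLKO and 0.78 in Alb-Cre WAT (log2). Summed brown adipocyte markers ranged from 37.7 to 197 CPM in BLKO DF and 35.9 to 249.9 CPM in BLKO AL WAT, and from 13.1 to 137 CPM in Alb-Cre DF and 23.0 to 84.95 CPM in Alb-Cre AL WAT. Of the 2 brown adipocyte markers tested, Cidea and Cox8b, 0 passed in BLKO and both were higher with DF in Alb-Cre WAT (median 0.96). Of the 5 hepatocyte markers tested, 2 were higher with DF in BLKO WAT. In Alb-Cre WAT 1 of 4 fibroblast markers was lower with DF and 1 of 7 adipocyte markers higher. Summed mammary or skin epithelium markers reached 1062 CPM in BLKO DF and 1211 CPM in Alb-Cre DF WAT, against medians of 46.7 and 60.9 CPM. The part of these cell types in the differences of the autophagy genes was not tested.

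In lung, no autophagy gene was rhythmic with DF, where few of all genes were, and the shares with AL lay near those of all genes. None of 36 passed in BLKO DF or in Alb-Cre DF lung with edgeR or DESeq2, with 3 and 7 at an unadjusted p under 0.05, where 1.07% of all genes passed in BLKO DF and 1.39% in Alb-Cre DF lung. With AL, 6 of 36 (16.7%) passed in BLKO lung, where 12.7% of all genes did, and 5 of 36 (13.9%) in Alb-Cre lung, where 15.0% did. Leaving out 1 hour gave 2 to 6 in BLKO AL lung, moving by over 1.5 times at hours 6, 8, 14, 16 and 18, and 0 to 6 in Alb-Cre AL lung, moving as far at hours 4, 6, 14, 18 and 20. The 6 in BLKO AL lung were Atg3, Gabarapl1, Ulk2, Atg7, Tfeb and Pik3r4, and the 5 in Alb-Cre AL lung were Becn1, Atg2a, Atg13, Atg3 and Gabarap. Atg3 and Atg7, the enzymes that load Atg8 proteins onto the membrane, are both in the BLKO set. Without the libraries 0B, 4B and 22A the BLKO AL rhythms of Gabarapl1 (adjusted p = 0.5004) and Tfeb (0.135) were lost, and with DESeq2 that of Pik3r4 was (0.0856). None of the 11 rhythms reached a fitted peak-to-trough of 1.5-fold.

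Feeding changed the rhythm of 1 of 36 genes in BLKO lung, Atg3 (adjusted p = 0.00362), where 1.87% of all genes changed. Atg3 ranged over 53.2, 67.8 and 86.8 CPM (lowest, median and highest) in BLKO DF and 50.9, 80.2 and 110.0 CPM in BLKO AL lung, with peaks at hour 9.64 with DF and 16.9 with AL. At hour 16, picked as the highest hour of BLKO AL, both libraries, the higher at 110.0 CPM, lay above every BLKO DF library, which is no separate support. Without hour 18 the change had an adjusted p of 0.0514. In Alb-Cre lung 0 of 36 changed with edgeR or DESeq2, with 5 at an unadjusted p under 0.05, where 0.745% of all genes did. The difference between genotypes passed for 0 members with either tool (3 at an unadjusted p under 0.05) and for 0.0% of all genes.

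Mean levels in BLKO lung were lower with DF for 4 of 36 autophagy genes and higher for 0, where 2.44% of all genes were lower and 2.17% higher. Atg3 fell by 0.20 ± 0.05 (adjusted p = 0.00863), Sqstm1 by 0.15 ± 0.04 (0.00934), Gabarapl1 by 0.20 ± 0.05 (0.0104) and Atg14 by 0.21 ± 0.06 (0.0163). Gabarapl1 had 245, 286 and 357 CPM in BLKO DF and 283, 314 and 594 CPM in BLKO AL lung, and 281, 346 and 440.1 CPM in Alb-Cre DF and 267, 320.3 and 418 CPM in Alb-Cre AL lung. The libraries 0B, 4B and 22A, at 444, 594 and 472 CPM, were again the highest, with the next at 368 CPM. Without them Gabarapl1 (-0.11, adjusted p = 0.204) and Sqstm1 (-0.10, 0.125) no longer passed. Single hours ended these calls too: hour 4 (-0.14) or 12 (-0.17) for Gabarapl1, hour 4 (-0.12) or 14 (-0.13) for Sqstm1, hour 18 (-0.18) for Atg3, and hour 2 (-0.16), 10 (-0.20) or 12 (-0.16) for Atg14.

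In Alb-Cre lung 1 of 36 genes changed its mean, Bnip3l, a mitochondrial cargo receptor, where 4.34% of all genes were higher and 4.69% lower. Bnip3l levels (lowest, median and highest) were 28.04, 40.7 and 58.8 CPM in BLKO DF and 23.3, 33.7 and 44.6 CPM in BLKO AL lung, and 39.8, 57.1 and 73.9 CPM in Alb-Cre DF and 40.2, 61.0 and 164 CPM in Alb-Cre AL lung. The highest of these, library 22B of Alb-Cre AL, stood apart from the next at 95.5 CPM. The Bnip3l difference was 0.23 ± 0.09 in BLKO (adjusted p = 0.125) and -0.32 ± 0.09 in Alb-Cre lung (0.0123), and -0.17 in Alb-Cre lung without hour 22 and -0.24 without hour 12, where the call was lost. In lung 3 of 36 genes had a different mean effect in the 2 genotypes, where 2.81% of all genes had a higher value in BLKO and 2.91% a lower one. The interactions were 0.55 ± 0.13 for Bnip3l (0.00272), -0.35 ± 0.07 for Gabarapl1 (0.00128) and -0.23 ± 0.05 for Sqstm1 (0.00365). All 3 still passed without the libraries 0B, 4B and 22A, which is no independent check for Gabarapl1, the gene they were picked by. Bnip3l is known for clearing mitochondria from maturing red cells. Of the 3 red cell markers 1 had enough reads to be tested, Alas2, and its differences had the signs of those of Bnip3l: it did not pass in BLKO lung (0.15) and fell with DF in Alb-Cre lung (-0.68). Alas2 ranged over 187, 239 and 2361 CPM (lowest, median and highest) in BLKO DF and 157, 272 and 869.9 CPM in BLKO AL lung, and 171, 366 and 873 CPM in Alb-Cre DF and 147, 379 and 2147 CPM in Alb-Cre AL lung. Its BLKO median was thus lower with DF, against the sign of the fitted difference, and the Alb-Cre medians lay close together. The highest libraries stood far above the medians. Of the 4 fibroblast markers 2 were lower with DF in Alb-Cre lung and 0 passed in BLKO lung. Single lung libraries also held high levels of other markers. Summed adipocyte markers reached 2450 CPM in BLKO AL lung, against a median of 295.9 CPM. Summed muscle markers reached 6369 CPM in Alb-Cre DF lung, against a median of 405.4 CPM. The part of red cell, fibroblast or other cell content in the Bnip3l difference was not tested.

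**Figure D5:**
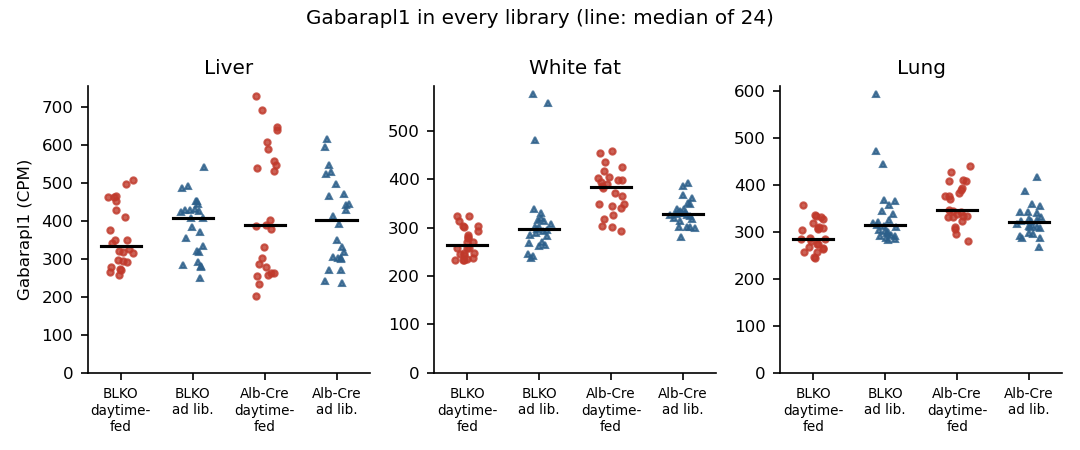
CPM of Gabarapl1 in every library of the 12 groups, with DF beside AL within each genotype and tissue, and a line at the median of 24 libraries. In Alb-Cre mice the spread is widest in liver (SD 167 CPM with DF and 114 CPM with AL), and in BLKO AL WAT and lung the highest values are 576 and 594 CPM.

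Set side by side, the same gene did not behave alike in the 3 tissues. Gabarapl1 was rhythmic in all 4 liver groups, in 0 of 4 WAT groups and in 1 of 4 lung groups. Ulk1, Wipi1 and Map1lc3b had a changed rhythm in both liver contrasts and in no WAT or lung contrast, and Atg14 changed in both liver contrasts and in Alb-Cre WAT. The tissues were fitted separately, so these are counts and not a test of a difference between tissues.

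Between genotypes, mean levels under AL differed for 24 of 36 autophagy genes in liver (6 higher and 18 lower in BLKO), 28 in WAT (10 higher, 18 lower) and 24 in lung (11 higher, 13 lower). Of all genes 59.4% differed in liver, 62.6% in WAT and 65.9% in lung, so these counts lie near the background. Differences in liver included -1.02 for Atg16l2 and -0.70 for Wipi2, and in lung 1.97 for Wipi2, 1.12 for Wipi1, -1.31 for Gabarapl2 and -1.02 for Bnip3l. Wipi2 was thus lower in BLKO liver and higher in BLKO lung. Genotype and the separate sets of libraries and tables cannot be told apart here.

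The 3 members without a test were not listed in every table or had few reads. Atg4a, a protease that trims Atg8 proteins, was listed in the BLKO liver table alone, with 2 to 26 counts per library (median 13, 48 libraries), and in a fit of that table by itself neither its mean (-0.11 ± 0.13, adjusted p = 0.754) nor its rhythm (0.944) differed with feeding beyond the threshold. Atg4d, of the same protease family, had median counts of 2 to 4 and at most 12 in any library. Atg9b, the second Atg9 gene, had median counts of 1 to 6 in the 5 tables that list it and at most 47, in a BLKO lung library.

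Other genes of the pathway were read from 3 lists of 30 genes each: lysosome, nutrient sensing, and further autophagy genes. In liver a feeding effect on rhythm passed for 1 of 28 lysosome genes in BLKO and 9 of 28 in Alb-Cre, for 6 of 23 nutrient sensing genes in BLKO and 13 of 23 in Alb-Cre, and for 5 of 23 further autophagy genes in BLKO and 11 of 23 in Alb-Cre livers, where 15.2% of all genes passed in BLKO and 28.8% in Alb-Cre livers. Npc1, which exports cholesterol from lysosomes, had an adjusted p of 0.00122 in BLKO and 3.02e-13 in Alb-Cre livers, with peaks at hour 21.4 with DF and 9.91 with AL in the controls. Flcn, a regulator of mTORC1 at the lysosome, had 2.07e-04 in BLKO and 2.95e-12 in Alb-Cre livers, with control peaks at hours 19.2 and 6.84. Wdr45, a relative of the Wipi proteins, had 3.32e-05 in BLKO and 1.84e-11 in Alb-Cre livers, with control peaks at hours 21.6 and 8.37. These DF peaks fall in the hours 18 to 24 that hold most rhythmic members, and no test of shared timing was made.

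In WAT the same effect passed for 1 of 28, 1 of 25 and 5 of 25 genes of the lysosome, nutrient sensing and further autophagy lists in BLKO, and for 0 of 28, 2 of 25 and 3 of 25 in Alb-Cre, where 8.97% of all genes passed in BLKO and 11.4% in Alb-Cre WAT. Trp53inp2, a nuclear protein that moves to autophagosomes, had the lowest adjusted p of them in both genotypes (1.86e-06 in BLKO and 4.07e-06 in Alb-Cre WAT). In lung it passed for 0 of 28, 2 of 26 and 0 of 25 in BLKO, and for none of the 3 lists in Alb-Cre, where 1.87% of all genes passed in BLKO and 0.745% in Alb-Cre lung.

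Daily means of the listed genes went both ways with feeding. The lysosome, nutrient sensing and further autophagy lists had 28, 23 and 23 genes tested in liver, 28, 25 and 25 in WAT, and 28, 26 and 25 in lung. In liver no list had more than 1 gene with a changed mean in either genotype. Of all genes 2.24% were higher with DF and 2.01% lower in BLKO livers, and 4.33% and 3.54% in Alb-Cre livers. In BLKO WAT 1 lysosome gene was higher with DF and 3 lower, 2 nutrient sensing genes higher and 2 lower, and 3 further autophagy genes higher and 2 lower. In Alb-Cre WAT 1 lysosome gene was higher and 0 lower, 3 nutrient sensing genes higher and 2 lower, and 1 further autophagy gene higher and 1 lower. Of all genes 5.02% were higher and 5.39% lower in BLKO WAT, and 4.89% and 4.91% in Alb-Cre WAT. In BLKO lung 3 lysosome genes were higher, 1 nutrient sensing gene lower and 3 further autophagy genes lower, where 2.17% of all genes were higher and 2.44% lower. In Alb-Cre lung 2 lysosome genes were higher and 1 lower, 0 nutrient sensing genes changed, and 4 further autophagy genes were higher and 3 lower. Of all genes 4.34% were higher and 4.69% lower there. Mtor, the kinase that restrains autophagy when nutrients are plentiful, had the lowest p of the nutrient sensing genes in both WAT contrasts and was higher with DF, by 0.28 in BLKO (adjusted p = 7.06e-08) and 0.24 in Alb-Cre (4.40e-06).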

How the data were processed

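The authors deposited 6 tables, 1 per tissue and genotype, each with 48 columns of raw read counts per gene symbol and 48 columns of a normalized signal, which equals the deposited count divided by 1 factor per library and was not used. The submitters' processing notes name mm10 as the build and HTSeq, STAR, cutadapt, bcl2fastq and DESeq2 as tools; of their versions, the annotation and the strand setting nothing is given in the sources used here. Per the labels' protocols, RNA was reverse transcribed with indexed primers in plates, pooled and amplified linearly by in vitro transcription, so counts are not independent molecules. Each of the 288 count columns carries the title of 1 sample, and 0 were left over.

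Genes listed in both tables of a tissue entered 1 edgeR quasi-likelihood F test per tissue over 96 libraries (edgeR 4.0.16, limma 3.58.1, R 4.3.3): filterByExpr, TMM, and a mean, cosine and sine of time with a 24 h period per group (12 coefficients, 84 residual degrees of freedom), with Benjamini-Hochberg adjustment over 9009 genes in liver, 11065 in WAT and 11949 in lung and a threshold of 0.05. Peak hours and peak-to-trough differences came from least squares fits on the log2 scale (CPM, prior count 2). Rhythm contrasts have no fold change. The fit was tested on simulated counts. The members and lists were chosen with earlier results of these data known. Full values are given for members called by a feeding or interaction test, at most 8 per test and tissue in order of p, and for at most 3 genes of each other list. Coordinates are GENCODE M21 on mm10, matched by symbol. Alternatives were DESeq2 1.42.0, RLE size factors, no low-count filter, only the groups compared, a replicate block, a fold minimum, each hour left out, and, added after seeing the data, leaving out libraries that stand apart. The labels do not say that replicate letters pair libraries across groups, and the main fit did not pair them. Tables and figures were made with Python 3.11.15, numpy 2.4.6, pandas 2.3.3 and matplotlib 3.10.9.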

Additional observations from a re-analysis of the deposited data

Results flagged for a closer look

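In 10 cases the feeding effect on an autophagy gene differed between genotypes by the interaction test. For the rhythm in liver the adjusted p was 0.00108 for Bnip3, 0.00615 for Uvrag, 0.0173 for Gabarapl1 and 0.0474 for Atg9a, where 7.29% of all genes passed. The calls of Uvrag, Gabarapl1 and Atg9a were lost when certain single hours were left out, that of Atg9a also with a replicate block or without the low-count filter. For the daily mean the difference between genotypes (BLKO minus Alb-Cre, log2) was 0.55 for Atg16l2 in liver, 0.39 for Becn1 and -0.42 for Gabarapl1 in WAT, and -0.35 for Gabarapl1, 0.55 for Bnip3l and -0.23 for Sqstm1 in lung. Of all genes 0.921% had a higher and 0.81% a lower value in BLKO in liver, 1.71% and 1.89% in WAT, and 2.81% and 2.91% in lung. The Atg16l2 call was lost without the libraries 0B, 4B and 22A, and when certain single hours were left out. Gabarapl1 is the member that passed in all 3 tissues, by rhythm in liver (a call lost without hour 6 or 16) and by mean in WAT and lung. The tissues may come from the same mice, so these cannot be taken as independent repeats. In WAT and lung Gabarapl1 was lower with DF in BLKO and higher with DF in Alb-Cre libraries, and in Alb-Cre lung the difference of 0.14 did not pass alone (adjusted p = 0.0673). The libraries 0B, 4B and 22A of BLKO AL mice bear on the Gabarapl1 values of WAT and lung: without them the differences between genotypes were -0.28 (adjusted p = 0.00541) and -0.25 (0.00798).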

How the results depend on the processing

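Counts of autophagy genes called stayed within 1.5 times in 567 of 648 recounts and moved further in 81, and of 1116 recomputed single-gene values 83 lost their call and 0 reversed. With DESeq2 the rhythm difference between genotypes under AL in liver gave 1 gene, the Alb-Cre AL rhythm in WAT 4 and the BLKO feeding effect on rhythm in WAT 1. Fitting only the groups compared gave 1 rhythmic gene in BLKO AL liver, 2 with a genotype difference in DF liver, 1, 0 and 5 rhythmic in BLKO DF, BLKO AL and Alb-Cre DF WAT, and 2 in Alb-Cre AL lung. Requiring a peak-to-trough of 1.5-fold left 5, 1 and 4 rhythmic genes in BLKO DF, BLKO AL and Alb-Cre AL liver, 0 and 2 in BLKO AL and Alb-Cre DF WAT, and 0 in both AL lung groups. The labels do not say that the replicate letters pair libraries. A replicate block gave 1 gene for the BLKO feeding effect on rhythm in WAT (0 without it), 12 in BLKO and 20 in Alb-Cre liver. Between groups, residuals of libraries with the same letter and hour had mean correlations of 0.0386 to 0.0869 in liver and 0.00274 to 0.116 in WAT. In lung they were -0.105 to 0.0252, and for libraries of different hours -0.00619 to 0.00599 over the tissues. Whether the letters mark a pairing was not tested. Without the libraries that stand apart the WAT counts were 2 rhythmic in BLKO AL, 5 in Alb-Cre AL and 1 BLKO feeding effect on rhythm. Without the BLKO AL libraries 0B, 4B and 22A, liver gave 5 rhythmic genes in BLKO AL, 2 and 3 genotype differences in rhythm with DF and AL, and 0 interactions of the mean; WAT gave 1 and 0 rhythmic in BLKO DF and BLKO AL, feeding effects on rhythm of 2 in BLKO and 10 in Alb-Cre, and 7 on the mean in BLKO; lung gave 2 feeding effects on the mean in BLKO and 2 in Alb-Cre. The cause of these moves was not tested.

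Leaving out 1 hour at a time gave, in liver, 2 to 6 rhythmic genes in BLKO AL, 4 to 8 in Alb-Cre AL, 6 to 11 feeding effects on rhythm and 2 to 4 on the mean in BLKO, 0 to 1 and 0 to 4 genotype differences in rhythm with DF and AL, and 1 to 5 and 0 to 1 interactions of rhythm and mean. In WAT it gave 1 to 3 rhythmic genes in BLKO AL, 5 to 10 in Alb-Cre DF and 1 to 5 in Alb-Cre AL, 0 to 2 feeding effects on rhythm in BLKO and 3 to 5 on the mean in Alb-Cre. In lung it gave 2 to 6 rhythmic genes in BLKO AL and 0 to 6 in Alb-Cre AL, 0 to 1 feeding effects on rhythm and 2 to 5 on the mean in BLKO, and 1 to 3 on the mean in Alb-Cre. The counts of 16 rhythmic genes in Alb-Cre DF liver (13 to 16) and 19 feeding effects on rhythm there (16 to 19) stayed within 1.5 times under all alternatives run. Depth limits Atg4d and Atg9b most, and Atg4a is listed in 1 of the 6 tables.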
